A study of Mus musculus with 21 samples.

Results

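Eif4g2 was followed as a single locus of mouse chromosome 7, minus strand, chr7:118211535-118226516 of build mm9, a span of 14982 nt. It was chosen by its measured shares of the SRSF3 lists, over 2% of the cDNAs in nucleoplasm and far less of those in chromatin, so these values are given as a description. The locus is 1 of 34919 loci in the series. It held 1110 of the 1387615 entries in the 6 lists, on 695 distinct nucleotides, with 12677 of 3232078 cDNAs. Gene models of build mm9 were not used here, so the name rests on the position of the span, and exons, introns and UTRs were not assigned.

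The study mapped RNA contacts of SRSF3-GFP and SRSF7-GFP by fractionation iCLIP in P19, an embryonal carcinoma line of the mouse. Confluent cells received ultraviolet light of 254 nm at 100 mJ/cm2, which links proteins to the RNA they touch, and were then split into chromatin, nucleoplasm and cytoplasm, with no other treatment in the labels. There were 21 samples, 4 replicates in each SRSF3 fraction and 3 in each SRSF7 fraction, and the replicates of a group were pooled into 1 list by the authors. The labels name the fusion protein but not its promoter or clone, and every sample carries a tagged protein, so there is no measure of background cDNAs. Each list gives single nucleotides with the number of cDNAs that ended there, the sign being read as the strand. With pooled lists the spread between replicates is unknown, and no test over samples was possible. Intervals are exact 95% binomial intervals (Clopper-Pearson for shares, conditional for ratios) and cover counting error only, so they are too narrow wherever replicates vary. Where positions are counted, the intervals treat neighbouring nucleotides as independent and are too narrow for that reason as well. Markers of the cell line were not checked, since the lists name no gene.

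Eif4g2 encodes a translation initiation factor of the eIF4G family, also called DAP5 or p97. It resembles the part of eIF4G1 that binds eIF4A and eIF3 but lacks the part that binds the cap-binding protein eIF4E, and it is known for translation that does not depend on eIF4E. The gene also hosts a small nucleolar RNA, Snord97. Such RNAs are cut from introns of their host and remain in the nucleus, so reads from 1 host gene can come from its pre-mRNA, its mRNA or the small RNA it carries. SRSF3 and SRSF7 are SR proteins, which bind exons and help splicing and mRNA export. The RefSeq gene table (assembly GRCm38.p6) lists 1 snoRNA gene inside Eif4g2, LOC115486847. It was not placed on mm9 here.

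The lists held between 248498 cDNAs (SRSF7 chromatin) and 1768665 cDNAs (SRSF3 chromatin). A share of a list moves with the amount of an RNA in the fraction as well as with binding to it, and these cannot be told apart here. A deeper list also admits weaker positions.

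Summed over the 6 lists, most Eif4g2 cDNAs came from 1 short cluster, not from the length of the span. Positions joined at gaps of up to 30 nt formed 61 clusters, and the main cluster of 91 nt, at 118219607 to 118219697, held 11375 of the 12677 cDNAs, or 89.7%. SRSF3 nucleoplasm, a list used to choose the locus, gave 6757 of these 11375. The main cluster lies 6819 nt downstream of the 5′-most listed position of the locus and 8072 nt upstream of the 3′-most. The next cluster held 185 cDNAs in all 6 lists together. Only 5 clusters reached 100 cDNAs, and 40 of the 61 appeared in 1 list. Of these 40, 26 were in SRSF3 chromatin, the deepest list. Single-list clusters were not counted over the whole series, so it is unknown whether 40 of 61 is unusual.

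**Figure D1:**
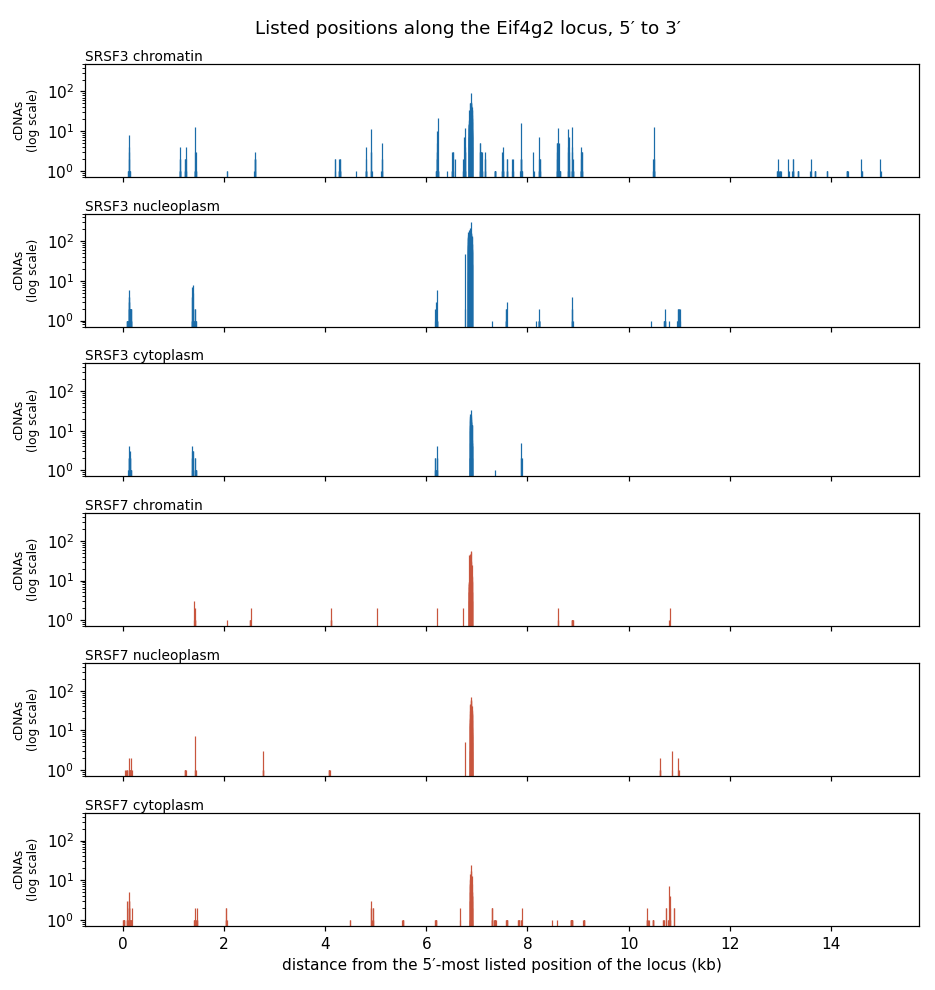
cDNAs per listed nucleotide (log axis) against distance in kb from the 5′-most listed position, with 1 panel per pooled list. All 6 panels rise to their highest position at the same place, between 6 and 7 kb, and SRSF3 chromatin carries the densest scatter of low positions elsewhere.

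Chromatin, nucleoplasm and cytoplasm gave 1656, 6757 and 542 cDNAs in the main cluster for SRSF3. For SRSF7 the numbers, in the same order, were 925, 1196 and 299. It made up 71.9% of the locus's cDNAs in SRSF3 chromatin (70.0 to 73.7), 96.2% in SRSF3 nucleoplasm (95.7 to 96.6) and 85.0% in SRSF3 cytoplasm (81.9 to 87.6). The corresponding SRSF7 values were 95.9% (94.4 to 97.0), 95.2% (93.9 to 96.3) and 60.8% (56.3 to 65.1). The cluster supplied most of the locus's cDNAs in every list, and the smallest part in SRSF7 cytoplasm.

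As a share of all listed cDNAs, the main cluster stood far above the other lists in SRSF3 nucleoplasm. The SRSF3 shares were 0.0936% (0.0892 to 0.0982) for chromatin, 2.14% (2.09 to 2.19) for nucleoplasm and 0.211% (0.193 to 0.229) for cytoplasm. The SRSF7 shares were 0.372% (0.349 to 0.397), 0.435% (0.411 to 0.460) and 0.0814% (0.0724 to 0.0912). By cDNAs both proteins had their highest share in nucleoplasm, but SRSF7 chromatin came close to SRSF7 nucleoplasm. The order of these SRSF7 fractions at the whole locus changed under other ways of counting, given below. The lowest share was in chromatin for SRSF3 and in cytoplasm for SRSF7.

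Outside the cluster nucleoplasm was again highest for SRSF3, with chromatin and cytoplasm at overlapping intervals, and the order changed for SRSF7. There SRSF3 had 647, 266 and 96 cDNAs in the same order of fractions, and SRSF7 had 40, 60 and 193. These were 0.0366% (0.0338 to 0.0395), 0.0843% (0.0745 to 0.0951) and 0.0373% (0.0302 to 0.0456) of the SRSF3 lists. For SRSF7 they were 0.0161% (0.0115 to 0.0219), 0.0218% (0.0166 to 0.0281) and 0.0525% (0.0454 to 0.0605). SRSF7 was thus highest in cytoplasm outside the cluster and lowest in cytoplasm within it.

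**Figure D2:**
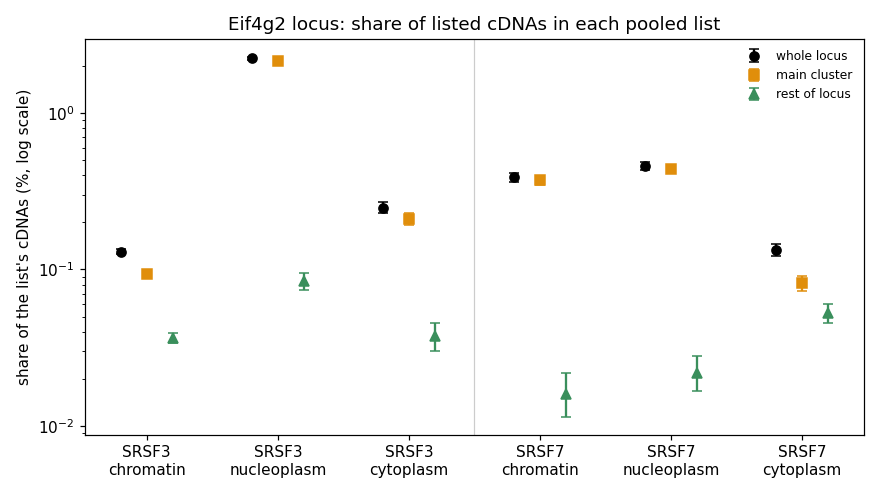
Share of each list's cDNAs (percent, log axis) in the whole locus, the main cluster and the rest of the locus, with exact 95% intervals for counting error. In SRSF3 nucleoplasm the cluster reaches 2.14% and the rest 0.0843%, while in SRSF7 cytoplasm they are 0.0814% and 0.0525%.

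The contrast used to choose the locus, SRSF3 nucleoplasm over chromatin, was 17.1-fold for the whole locus (16.3 to 17.9), with 7023 and 2303 cDNAs. It was 22.9-fold for the main cluster (21.7 to 24.2) and 2.30-fold for the rest (1.99 to 2.66). Loci were counted as higher or lower when the whole interval lay beyond 2-fold, which held for 31.6% of 1778 loci in the direction of nucleoplasm and 17.2% in that of chromatin. With at least 200 cDNAs per locus the balance was the reverse, 16.3% and 33.8% of 902 loci. Eif4g2 ranked 47th of the 1778 by its ratio. By share it ranked 3rd in SRSF3 nucleoplasm and 117th in SRSF3 chromatin.

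SRSF3 nucleoplasm also exceeded SRSF3 cytoplasm, 8.97-fold for the locus (8.27 to 9.74), 10.2-fold for the cluster (9.31 to 11.1) and 2.26-fold for the rest (1.78 to 2.88). Among 921 loci, 16.8% were higher in nucleoplasm by the same rule and 8.36% lower, and Eif4g2 ranked 21st. This value shares the nucleoplasm list used to choose the locus. Cytoplasm over chromatin was 1.91-fold for the locus (1.74 to 2.08), not wholly beyond 2-fold, where 38.0% of 1050 loci were higher and 20.8% lower (25.4% and 38.8% of 562 loci with at least 200 cDNAs). This ratio shares the chromatin list used in the choice. The median locus lay at 0.74 on the log2 scale against 0.93 for Eif4g2, which ranked 483rd. The cluster alone gave 2.25-fold (2.04 to 2.48) and the rest 1.02-fold (0.815 to 1.27), so SRSF3 outside the cluster took like shares of cytoplasm and chromatin.

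SRSF7 lists had no part in the choice. Nucleoplasm over chromatin was 1.18-fold for the locus (1.08 to 1.28), with 1256 and 965 cDNAs, and was not beyond 2-fold. By comparison 21.5% of 915 loci were higher in nucleoplasm and 14.2% lower, and the median locus lay at 0.73 on the log2 scale against 0.23 for Eif4g2. Nucleoplasm exceeded cytoplasm 3.41-fold (3.07 to 3.79), a call made for 22.6% of 1248 loci, with 16.6% called lower. Cytoplasm was lower than chromatin, at 0.345 of its share (0.309 to 0.385), a call made for 22.3% of 852 loci, with 16.8% called higher. By cDNAs, both nuclear fractions of SRSF7 thus stood above cytoplasm and close to each other. Counting positions in place of cDNAs turned the log2 ratio of nucleoplasm over cytoplasm from 1.77 to -0.94 (-1.32 to -0.58) and left cytoplasm over chromatin at 0.17 (-0.20 to 0.54), and a cap of 10 cDNAs per position ended both calls (0.30 and -0.82). Nucleoplasm over chromatin turned to -0.78 with positions counted (-1.21 to -0.35) and to -0.53 with the cap (-0.71 to -0.35). It stayed positive with at least 3 cDNAs per position (0.72) and without the main cluster (0.44). Eif4g2 ranked 232nd of 1248 for nucleoplasm over cytoplasm, and calls in its direction were frequent in both comparisons.

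Within SRSF7 the cluster and the rest of the locus ran in opposite directions between nucleus and cytoplasm. Cytoplasm over chromatin was 0.219 for the cluster (0.191 to 0.249) and 3.26 for the rest (2.31 to 4.71). Nucleoplasm over cytoplasm was 5.34 for the cluster (4.70 to 6.08) and 0.415 for the rest (0.305 to 0.557). The rest rested on 40, 60 and 193 cDNAs in chromatin, nucleoplasm and cytoplasm.

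Between the proteins, the share of the locus was larger for SRSF7 in chromatin and for SRSF3 in nucleoplasm. Peak calling may differ between the proteins, which bears on every ratio between them and was not tested. In chromatin SRSF3 took 0.335 of the SRSF7 share (0.311 to 0.362), and 17.2% of 1358 loci were lower in SRSF3 by the same rule and 21.4% higher. In nucleoplasm SRSF3 was 4.87-fold higher (4.59 to 5.18), where 12.7% of 1093 loci were higher, 18.3% were lower and Eif4g2 ranked 56th. With at most 10 cDNAs per position this ratio was 1.14 on the log2 scale (0.99 to 1.30), not wholly beyond 2-fold. The other alternatives kept the call. In cytoplasm SRSF3 was 1.85-fold higher (1.64 to 2.09), not wholly beyond 2-fold, where 14.0% of 866 loci were higher and 20.7% lower. The first pair of these comparisons uses the SRSF3 lists that chose the locus. Outside the cluster the chromatin order turned, with SRSF3 2.27-fold higher (1.65 to 3.21).

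**Figure D3:**
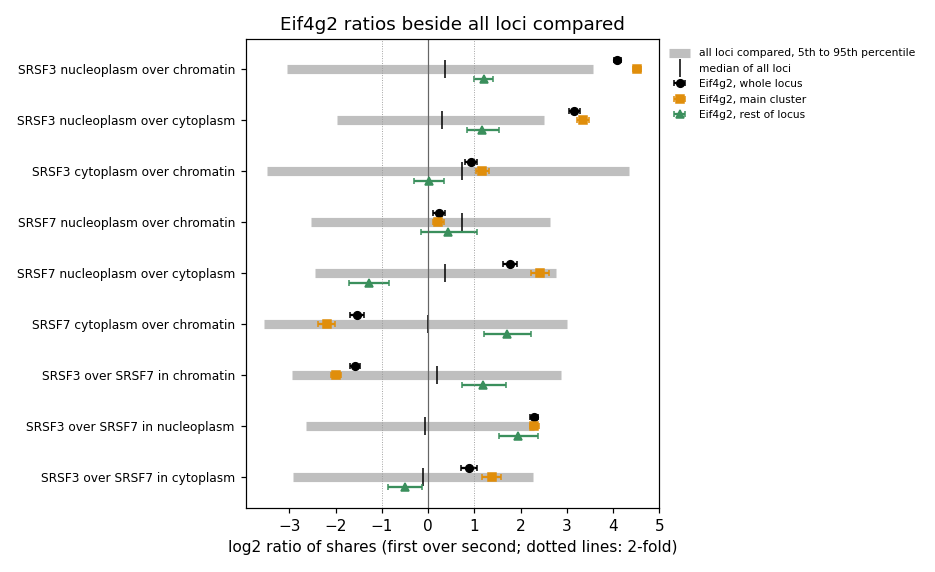
Log2 ratio of shares for Eif4g2 (whole locus, main cluster, rest, with exact 95% intervals for counting error) in 9 comparisons, beside the median and the 5th to 95th percentile of all loci compared. The whole locus lies beyond the 95th percentile in SRSF3 nucleoplasm over chromatin (4.10) and over cytoplasm (3.17). The first contrast was used to choose the locus and the second shares its nucleoplasm list. In the comparisons of SRSF7 fractions the whole locus lies between the 5th and 95th percentile. The cluster and the rest lie on opposite sides of 0 in SRSF7 nucleoplasm over cytoplasm (2.42 and -1.27).

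Within the main cluster the lists shared their hot spots. Position 118219630, 67 nt from the 5′ end of the cluster, was the highest in SRSF3 chromatin (93 cDNAs), SRSF3 nucleoplasm (316), SRSF3 cytoplasm (33) and SRSF7 nucleoplasm (69). It held 54 cDNAs in SRSF7 chromatin, next to 55 at 118219639, and 17 in SRSF7 cytoplasm, where 118219626 led with 24. Its share of the cluster's cDNAs ran only from 4.68% in SRSF3 nucleoplasm to 6.09% in SRSF3 cytoplasm. No nucleotide therefore dominated the cluster in any list, and the highest share of any was 8.03%, at 118219626 in SRSF7 cytoplasm.

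A stretch of 45 nt, 118219614 to 118219658, lay within the bounds of the cluster in all 6 lists. Per-nucleotide counts over these 45 nt correlated with Pearson r of 0.52 to 0.91 across the 15 pairs of lists, and Spearman rho of 0.53 to 0.88. Pairs from different proteins gave Pearson r of 0.54 to 0.86, much like pairs of the same protein. Neighbouring nucleotides share RNA sequence, crosslinking preference and library, so these values are a description without a test.

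The lists differed at the 5′ side of the cluster. SRSF3 nucleoplasm continued upstream of the common stretch for another 39 nt, to 118219697, with 2760 cDNAs there, against 3997 in the common stretch. SRSF3 chromatin had 293 cDNAs upstream and ended at 118219680, and SRSF7 chromatin had 148 and ended at 118219678. SRSF3 cytoplasm had 2, and SRSF7 nucleoplasm and cytoplasm had none listed beyond 118219658. Upstream RNA contacts were thus listed mainly in SRSF3 nucleoplasm and in both chromatin lists. SRSF7 nucleoplasm, with more cDNAs in the common stretch (1161) than SRSF7 chromatin (777), lacked them.

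Several of these edges were abrupt. The last 10 listed nucleotides of SRSF3 chromatin averaged 12.6 cDNAs and the last one held 18, followed by 61 nt with no position listed. In SRSF7 chromatin the last 10 averaged 6.70 and the last held 9, followed by a gap of 103 nt. In SRSF7 nucleoplasm the last 10 averaged 10.0 and the last held 3, followed by a gap of 83 nt. The lists hold only positions past the authors' threshold, and whether reads lay beyond these edges was not tested.

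**Figure D4:**
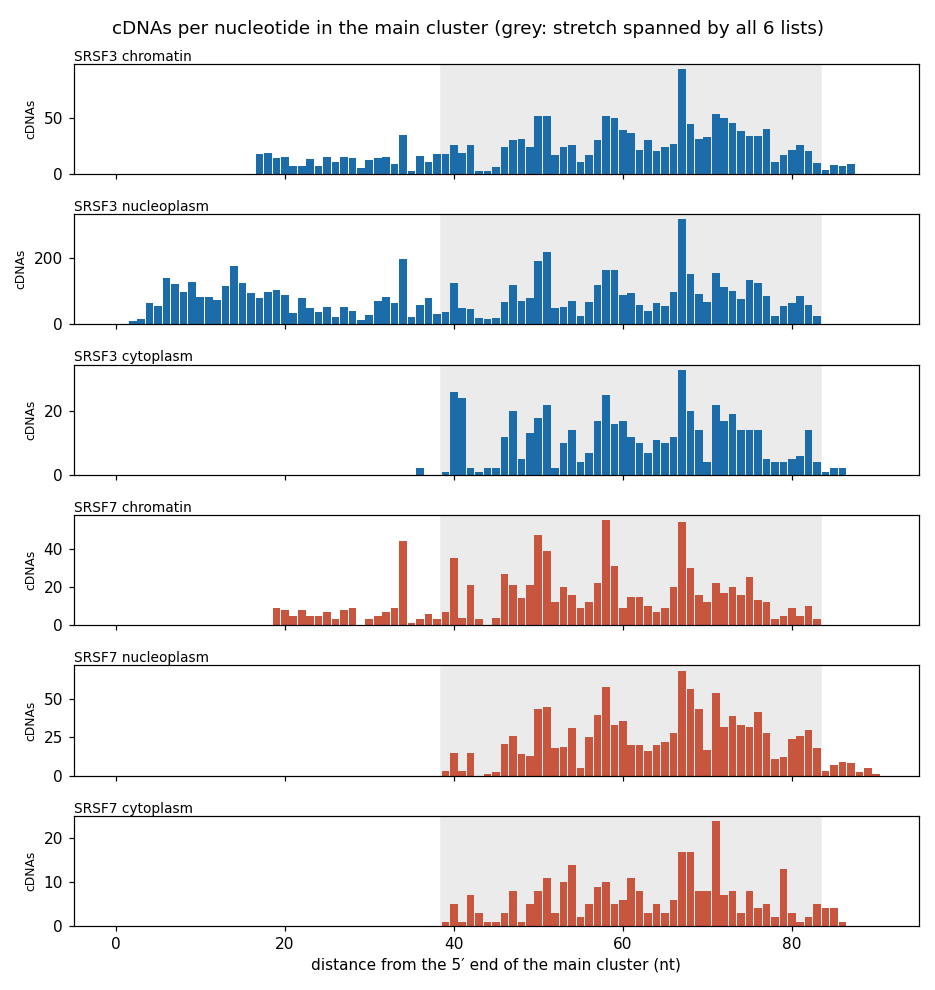
cDNAs per nucleotide against distance in nt from the 5′ end of the main cluster, with 1 panel per pooled list and the 45 nt common stretch in grey. The panels peak at like places within the grey stretch, and upstream of it SRSF3 nucleoplasm continues at high counts (2760 cDNAs) while SRSF7 nucleoplasm has none.

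Restricting the count to the common stretch kept the order of the fractions. SRSF3 nucleoplasm then exceeded chromatin 16.8-fold (15.8 to 17.9) and cytoplasm 6.09-fold (5.56 to 6.67). SRSF7 nucleoplasm was 1.35-fold chromatin (1.23 to 1.48) and 5.35-fold cytoplasm (4.70 to 6.10). SRSF3 over SRSF7 in nucleoplasm fell to 3.00-fold (2.81 to 3.21), since the upstream stretch had counted for SRSF3 alone there.

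Just upstream of the main cluster lay a 46 nt cluster, at 118219742 to 118219787, in which most nucleoplasmic cDNAs ended at 1 nucleotide. In SRSF3 nucleoplasm 48 of its 50 cDNAs ended at 118219742, and in SRSF7 nucleoplasm all 5 did. SRSF3 chromatin had 45 cDNAs spread over 18 positions there, with 12 at the same nucleotide, and SRSF7 chromatin had 2 cDNAs at 118219782. Neither cytoplasm list held any position of it. SRSF3 nucleoplasm over chromatin was 6.23-fold in this cluster (4.08 to 9.53).

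The named clusters near the 5′ end of the locus behaved unlike the main one. The 5′-most, 174 nt long at 118226343 to 118226516, had 29, 60 and 35 cDNAs in SRSF3 chromatin, nucleoplasm and cytoplasm, and 0, 16 and 45 in SRSF7. Its highest position in any list held 8 cDNAs. SRSF3 nucleoplasm was 11.6-fold chromatin (7.33 to 18.7). SRSF3 cytoplasm was 8.30-fold chromatin here (4.93 to 14.1), and nucleoplasm was 1.40-fold cytoplasm (0.906 to 2.18), an interval that spans 1. SRSF7 nucleoplasm was 0.475 of cytoplasm (0.251 to 0.856).

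The cluster at 118225043 to 118225147, 105 nt long and 1369 nt from the 5′-most position, was the next named one from that end. It had 28, 61 and 30 SRSF3 cDNAs in chromatin, nucleoplasm and cytoplasm. Cytoplasm was 7.37-fold chromatin (4.26 to 12.8) and nucleoplasm 12.2-fold chromatin (7.69 to 19.8). Nucleoplasm was 1.66-fold cytoplasm (1.05 to 2.66), an interval just clear of 1. SRSF7 had 9, 10 and 18 cDNAs, and none of its 3 fraction ratios had an interval clear of 1. In both named 5′ clusters SRSF3 nucleoplasm and cytoplasm were each beyond 2-fold over chromatin. There nucleoplasm was not beyond 2-fold over cytoplasm, against 10.2-fold in the main cluster. Smaller clusters lay between them, at 118225270 to 118225295 and 118225377 to 118225392. They had 15 and 13 cDNAs in SRSF3 chromatin and none in SRSF3 nucleoplasm or cytoplasm. The first of them also had 5 cDNAs in SRSF7 nucleoplasm. The SRSF3 chromatin list held 1768665 cDNAs, against 315510 in nucleoplasm and 257089 in cytoplasm. Counts this small in the deepest list cannot show a direction between the SRSF3 fractions.

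A cluster of 63 nt at 118220281 to 118220343 had 60, 21 and 19 SRSF3 cDNAs in chromatin, nucleoplasm and cytoplasm. As shares of the lists, nucleoplasm was 1.96-fold chromatin (1.13 to 3.27) and cytoplasm 2.18-fold chromatin (1.23 to 3.70), while nucleoplasm was 0.901-fold cytoplasm (0.461 to 1.77), an interval that spans 1. SRSF7 had 2, 0 and 6 cDNAs there.

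The other named clusters were small. At 118217868 to 118217942, 50 of 55 cDNAs were from SRSF3 chromatin, yet as a share of the list SRSF3 chromatin was 1.76-fold SRSF7 chromatin, with an interval that spans 1 (0.645 to 6.70). At 118217613 to 118217660 SRSF3 chromatin had 31 and nucleoplasm 12, with SRSF7 at 7 in chromatin and 11 in cytoplasm, and SRSF3 nucleoplasm was 2.17-fold chromatin (1.01 to 4.35). At 118215694 to 118215731, 18 of 22 were from SRSF7 cytoplasm, 7 of them at 118215727. Clusters found in a single list numbered 26 of 42 in SRSF3 chromatin, 1 of 14 in SRSF3 nucleoplasm and 0 of 6 in SRSF3 cytoplasm. For SRSF7 they were 2 of 11 in chromatin, 3 of 10 in nucleoplasm and 8 of 24 in cytoplasm. SRSF3 chromatin is also the deepest list, and what part depth had in these counts was not tested. Single-list clusters were not counted over the whole series, so no comparison with other loci can be drawn. Beyond 12 kb from the 5′-most position SRSF3 chromatin was the only list with entries, with 8, 27 and 13 cDNAs in successive steps of 1 kb.

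Outside the main cluster the sharing of positions varied widely between pairs of lists. Within 5 nt, 51 of 57 SRSF3 cytoplasm positions (89.5%, 78.5 to 96.0) had a nucleoplasm position, and 71 of 142 nucleoplasm positions (50%, 41.5 to 58.5) had a cytoplasm position. Chromatin matched 33 of the 57 cytoplasm positions (57.9%, 44.1 to 70.9) and, counted from chromatin, 57 of 326 (17.5%, 13.5 to 22.1). In SRSF7, 28 of 147 cytoplasm positions (19.05%, 13.0 to 26.3) had a nucleoplasm position, and 15 of 42 nucleoplasm positions (35.7%, 21.6 to 52.0) had a cytoplasm position. Between SRSF7 nucleoplasm and chromatin 3 of 42 matched (7.14%, 1.498 to 19.5), and 2 of 30 the other way (6.67%, 0.818 to 22.1). Of these 30 SRSF7 chromatin positions, 14 had a cytoplasm position (46.7%, 28.3 to 65.7). The number of positions in each list bears on these shares, and no difference between them was tested. Positions lay in runs of near nucleotides, with SRSF3 cytoplasm listed in 6 clusters, the main one included. They are thus not independent, and the intervals are too narrow. Sharing was not counted over the whole series, so no comparison with other loci can be drawn.

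Cytoplasmic positions of the 2 proteins also met outside the cluster. Of the 57 SRSF3 cytoplasm positions, 40 (70.2%, 56.6 to 81.6) lay within 5 nt of an SRSF7 cytoplasm position, and 33 of 147 SRSF7 positions (22.4%, 16.0 to 30.1) lay near an SRSF3 one. Here too the intervals are too narrow, and the share over the whole series was not counted.

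The opposite strand of the span held 2 cDNAs in SRSF3 nucleoplasm and none in the other lists. The next loci on the minus strand lay 25554 nt away on the 5′ side and 226162 nt on the 3′ side. Loci were formed by joining positions up to a set gap, so every next locus lies beyond that gap by construction. The distances therefore cannot show whether positions of a neighbouring gene were joined into the span, and this was not tested.

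Among 590 loci with at least 10 cDNAs in every list, likeness to Eif4g2 was measured as the Euclidean distance over the 6 log2 shares, each locus centred on its mean. The median distance was 3.98. The nearest locus, at 0.840, was a minus-strand span of 26 nt, chr13:16132962-16132987. It had 239, 371 and 43 SRSF3 cDNAs and 73, 73 and 26 SRSF7 cDNAs in chromatin, nucleoplasm and cytoplasm. The other 4 of the nearest 5 lay at distances of 1.05 to 1.34, among them a minus-strand span of 125 nt, chr2:122059514-122059638, which held 169, 196 and 38 SRSF3 cDNAs and 56, 101 and 23 SRSF7 cDNAs. SRSF3 nucleoplasm over chromatin in these 5 ran from 2.54 to 4.12 on the log2 scale, against 4.10 for Eif4g2. The 5 were picked on these same shares, so like ratios follow from the choice. All 5 were far weaker, with 0.0187% to 0.118% of SRSF3 nucleoplasm.

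Values of 3 other loci were set beside Eif4g2. The mitochondrial plus strand ranked above it in SRSF3 nucleoplasm, and its log2 ratio of nucleoplasm over cytoplasm was -0.63 in SRSF3 and -2.58 in SRSF7. Ranked below it was a minus-strand locus of 126 nt, chr9:78023133-78023258, with 0.13 and 0.93. For Eif4g2 these were 3.17 and 1.77. The Gas5 locus, named from its position and host of many snoRNAs, chr1:162965305-162970711 of the plus strand, had 3.00 and 4.63. Its ratio was thus slightly below that of Eif4g2 in SRSF3 and above it in SRSF7. Gas5 differed in SRSF3 nucleoplasm over chromatin, at 0.29 against 4.10, and its tallest cluster, of 47 nt, held 18.5% of its cDNAs against 89.7% at Eif4g2. These values are side by side without a test.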

How the data were processed

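Per the labels, the authors pooled the replicates of a group into 1 list. Each deposited score is a whole number with a sign, the cDNA count at 1 nucleotide, not scaled to depth. Per the file headers, positions were kept at FDR below 0.05, using 100 permutations and neighbourhoods of 15 nt. SRSF7 track names contain regionAsOne where all descriptions say separately, so peak calling may differ between proteins. The build is mm9, per the file headers and the submitters' processing notes. For the aligner, duplicate removal and peak caller the version is not given in the sources used here.

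Positions of the 6 lists on 1 strand were joined at gaps of up to 10000 nt into loci and, within Eif4g2, up to 30 nt into clusters. Loci were compared if both lists together held 50 or more cDNAs and each held 10 or more. Clusters named are the 5 with most cDNAs and the 3 highest of any list, ties included. The locus, clusters and comparisons were chosen with earlier results of these data known. The locus comparison was run on simulated counts that varied by counting error only. It therefore cannot show how the comparison fares where replicates vary. Coordinates are 1-based. The tools were scipy 1.17.1, numpy 2.4.6, pandas 2.3.3 and matplotlib 3.10.9 under Python 3.11.15. Alternatives were a minimum of 3 cDNAs per position, counts of positions, thinning to 248498 cDNAs, a total without the mitochondrial genome and the 10 highest other loci, a cap of 10 cDNAs per position, the locus without its main cluster, other gaps and distances, at least 200 cDNAs per locus and, chosen after seeing the data, the common stretch alone.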

Additional observations from a re-analysis of the deposited data

Results flagged for a closer look

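In 3 places the proteins ran in opposite directions under the same contrast, with 1 pooled list per group, so the difference was not tested. Each SRSF3 value below uses a list by which the locus was chosen, so it is a description only. Cytoplasm over chromatin for the whole locus was 0.93 on the log2 scale in SRSF3 (0.80 to 1.06) and -1.54 in SRSF7 (-1.70 to -1.38). For the main cluster it was 1.17 in SRSF3 (1.03 to 1.31) and -2.19 in SRSF7 (-2.39 to -2.00). Nucleoplasm over cytoplasm outside the main cluster was 1.17 in SRSF3 (0.83 to 1.53) and -1.27 in SRSF7 (-1.71 to -0.84).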

How the results depend on the processing

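Of 63 alternative values of the 9 log2 ratios of shares, 43 kept direction and side of 2-fold, 6 no longer passed it, 5 newly passed it and 9 changed sign, 2 of these with intervals that include 0. SRSF3 nucleoplasm over chromatin kept its call in all 7 alternatives, at 1.23 to 4.46; the lowest is without the main cluster, and with that cluster left in the total the rest gave 1.20, not wholly beyond 2-fold. No paired analysis was possible because replicates were pooled before deposit, and no replicate could be left out for the same reason. Without the main cluster the ratio was 1.20 for SRSF3 nucleoplasm over cytoplasm, and it turned to -1.26 for SRSF7 nucleoplasm over cytoplasm, 1.70 for SRSF7 cytoplasm over chromatin, 1.18 for SRSF3 over SRSF7 in chromatin and -0.49 in cytoplasm. With positions counted, SRSF3 nucleoplasm over cytoplasm was 0.19 and SRSF3 cytoplasm over chromatin 1.99, and SRSF7 turned to -0.78 for nucleoplasm over chromatin, -0.94 for nucleoplasm over cytoplasm and 0.17 for cytoplasm over chromatin (-0.20 to 0.54). With at most 10 cDNAs per position, SRSF3 gave 0.61 for nucleoplasm over cytoplasm and 1.86 for cytoplasm over chromatin. SRSF7 then gave -0.53 for nucleoplasm over chromatin, 0.30 for nucleoplasm over cytoplasm and -0.82 for cytoplasm over chromatin, and SRSF3 over SRSF7 in nucleoplasm was 1.14. Without the mitochondrial genome and the 10 highest other loci, SRSF3 cytoplasm over chromatin was 1.63, SRSF3 over SRSF7 in cytoplasm 1.14 and SRSF7 nucleoplasm over chromatin -0.012 (-0.13 to 0.11). The common stretch gave 1.46 for SRSF3 cytoplasm over chromatin and 1.40 for SRSF3 over SRSF7 in cytoplasm. The counted nucleotides or totals differ by construction, and beyond that the cause was not tested. A minimum of 3 cDNAs and thinning changed no call. Of 36 alternative shares of loci beyond 2-fold, 11 moved by over 1.5 times, 8 of them with at least 200 cDNAs per locus.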
